A study of Mus musculus with 3 samples.

Results

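The genes described here are 10 regulators and products of limb skeletal differentiation. The 5 early chondrogenic genes are Sox5, Sox6, Col2a1, Acan and Matn1. The 5 later genes, grouped here as bone genes, are Runx2, Runx3, Sp7, Ihh and Pthlh. Ihh and Pthlh encode signals that act on cartilage cells, so the contrast of the groups is not one of cartilage against bone. They were chosen by name out of 22367 protein-coding genes of the GENCODE vM1 annotation on the mm9 mouse genome. For each gene, every RNAP2 or Med12 peak was taken that overlapped the annotated gene span or lay within 100 kb of the most upstream start, and this stretch is called the searched region.

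Binding of RNA polymerase II (RNAP2) and of Med12, a subunit of the Mediator complex, was measured by ChIP-seq in distal forelimbs of wild-type mouse embryos at E12.5. The text accompanying the deposited series gives an earlier stage, and the stage in the sample labels and the study's methods is used here. The 3 samples were 1 RNAP2 library, 1 Med12 library and 1 input library without a peak list, all from dissociated limb cells fixed with formaldehyde, so no value below has a replicate error and no test between conditions exists. How many embryos were pooled was not given in the sources used here.

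Long bones of the limb begin as condensations of mesenchyme that become cartilage and are replaced by bone afterwards. SOX5 and SOX6 work with SOX9 to switch on cartilage matrix genes such as Col2a1, Acan and Matn1, whereas RUNX2, RUNX3 and SP7 drive cartilage maturation and bone formation, and the signals encoded by Ihh and Pthlh set the pace at which cartilage cells mature. RNAP2 gathers at the starts of genes that are being transcribed, and Mediator links factors bound at enhancers to the polymerase, so that both proteins can be found at starts as well as at distant regulatory sites.

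The deposited lists hold 20479 RNAP2 peaks and 10634 Med12 peaks. Each peak carries a score from the peak caller, its p-value turned into a negative log10 and multiplied by 10. Both lists end at a score of 40, so weaker binding is not seen. Peaks scored from 40 to 50, which are 2897 of the RNAP2 and 3816 of the Med12 peaks, lie outside the threshold stated for the peak calling. They include 16 of the 81 RNAP2 peaks and 7 of the 21 Med12 peaks of the 10 genes, and without them the Med12 peaks of the later genes fall from 6 to 3. The median score was 123 in the RNAP2 list and 56.8 in the Med12 list. Scores grow with the depth of a library and were compared within a list only. The lists hold no read counts, and the depth behind a single peak is therefore unknown. The labelled tissue was checked on marker genes, and an RNAP2 peak lay within 1 kb of a start at 6 of 6 markers of distal limb mesenchyme, at 2 of 2 of proximal limb, at 2 of 5 muscle markers, at 1 of 4 endothelial markers, and at 0 of 5 ectodermal, 0 of 4 blood and 0 of 10 other organ markers. Of all protein-coding genes, 42.2% had such a peak. Both proximal markers had one, Meis1 with a score of 581 and Meis2 with 106, so these counts do not tell distal from proximal limb. Of the distal limb markers, Hoxd13 and Hoxd12 share the same peak. Because whole tissue was used, binding in fewer cells and weaker binding in each cell cannot be told apart.

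RNAP2 lay at the starts of Sox5, Sox6 and Col2a1 among the early genes and of Runx2 and Runx3 among the later genes. Acan, Matn1, Sp7, Ihh and Pthlh had no peak of either list within 1 kb of any annotated start. The start peak of Col2a1 had a score of 2172, against 632 at Sox6, 499 at Sox5, 241 at Runx3 and 177 at Runx2, and the Sox6 value comes from a peak that also covers the start of another gene. At the starts of Sox6 that it does not share, the scores were 179 and 127, which lie below Runx3, so no order of the groups by start score can be read from these values. A count of 3 of 5 early and 2 of 5 later genes stands beside 42.2% of all protein-coding genes with an RNAP2 peak at a start (95% Wilson interval 41.6 to 42.8%, for counting error alone). In the 9439 genes with such a peak, the median of the highest start score was 383 and the middle 50% of genes lay between 155 and 926. The value for Col2a1 was therefore above the upper quartile, and those for the other 4 genes were between the quartiles.

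Med12 was found at a start of Sox6 alone, as against 9.37% of all protein-coding genes. The Sox6 start with Med12 also had RNAP2, a combination present at 8.66% of all genes. With scores of at least 100, no member had Med12 at a start, because the Med12 peak at Sox6 has a score of 70.15. Of the 21 Med12 peaks in the searched regions, 18 or 85.7% lay more than 1 kb from the start of any protein-coding gene, close to the 82.2% of the whole Med12 list. RNAP2 overlapped 14 of the 21, a share of 66.7% beside 42.7% of the whole list.

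**Figure D1:**
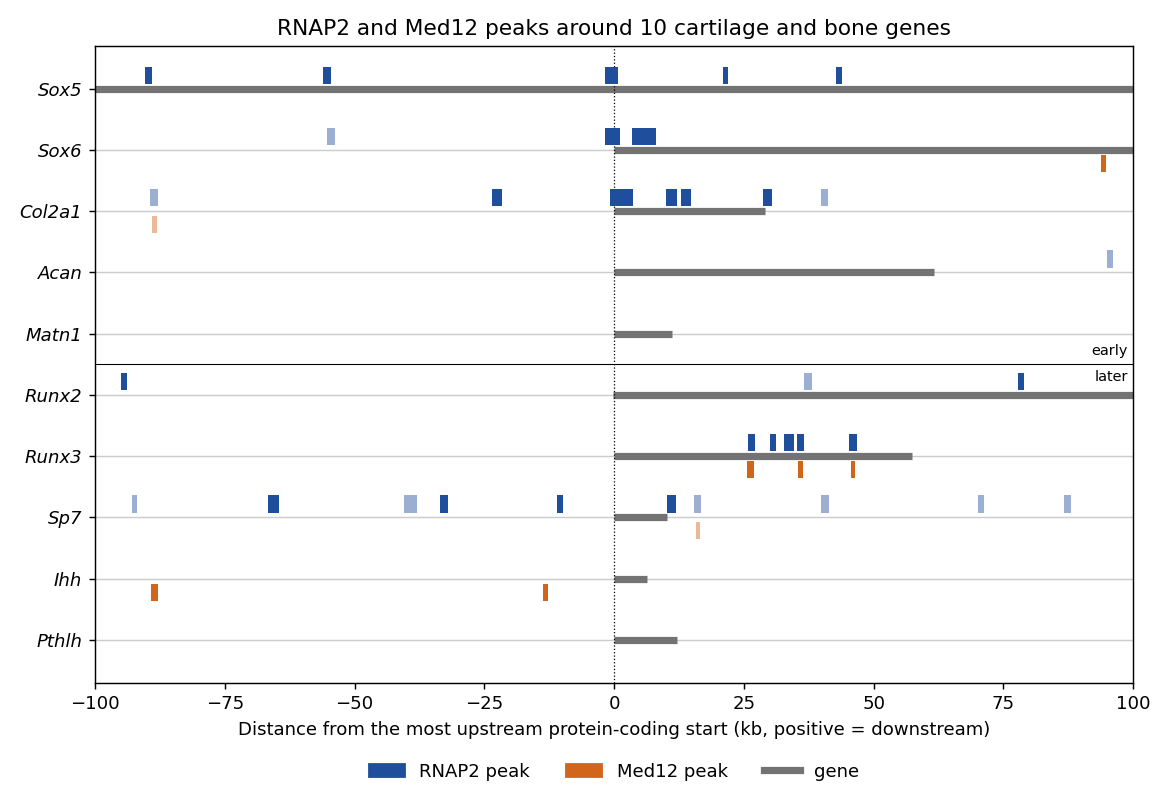
RNAP2 peaks (blue boxes above each line) and Med12 peaks (orange boxes below) within 100 kb of the most upstream protein-coding start of the 10 genes, drawn by distance from that start in kb with the direction of transcription to the right; grey bars are the genes and faded boxes are peaks at the start of another protein-coding gene. Runx3 holds 3 Med12 peaks inside the gene, and Matn1 and Pthlh have no peak in the window.

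The early genes had 63 RNAP2 peaks, 15 Med12 peaks and 10 sites shared by both lists in their searched regions, and the later genes had 18, 6 and 4. The medians over the genes were 7 RNAP2 peaks for the early and 3 for the later group, 1 Med12 peak for each, and 1 and 0 shared sites. Over all protein-coding genes the medians were 2 RNAP2 peaks, 1 Med12 peak and 0 shared sites. The early totals came almost entirely from Sox5 and Sox6, whose long spans make long searched regions. Within 100 kb of the most upstream start alone, without the span, the early genes had 11 RNAP2 peaks, 3 Med12 peaks and 1 shared site, and the later genes kept 18, 6 and 4. The order of the groups thus turned, though Sp7 alone held 10 of the later RNAP2 peaks, 6 of them at starts of other genes. At scores of 100 or more the order turned for Med12, with 1 early and 2 later peaks. It also turned for shared sites, with 1 and 2, but not for RNAP2, with 30 and 14. Counted from the most upstream protein-coding start instead, the early genes had 16 RNAP2 peaks, 2 Med12 peaks and 1 shared site. An RNAP2 peak was present in the searched regions of 4 early and 3 later genes, beside 77.2% of all protein-coding genes, a Med12 peak in 3 and 3, beside 54.7%, and a shared site in 3 and 2, beside 36.1%. Within the gene span, RNAP2 was found in 3 early and 3 later genes, beside 45.3%, Med12 in 2 and 1, beside 16.6%, and a shared site in the same numbers, beside 11.5%. Sp7 enters the RNAP2 span count only through the edge of a peak, which covers 0.537% of its span. Apart from the span counts of Med12 and shared sites, which rest on Sox5, Sox6 and Runx3, these numbers, from 10 genes, were near the background. Matn1 and Pthlh were the members without any peak in the searched region, and 16.8% of all genes had none.

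In the early genes, 53 of 63 RNAP2 peaks (84.1%) were away from the starts of protein-coding genes, mostly in introns of the long genes Sox5 and Sox6. In the later genes this held for 8 of 18 (44.4%), and in the whole RNAP2 list for 54.6%. Most of the remaining peaks of the later genes lay at the starts of neighbours of Sp7. The share of RNAP2 peaks with Med12 was 15.9% in the early and 22.2% in the later genes, beside 21.7% of the whole RNAP2 list.

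Sox6, which encodes a SOXD transcription factor of the cartilage program, had more peaks than any other member. The gene spans chr7:122614858-123182258 on the minus strand (ENSMUSG00000051910.7) and has 5 annotated protein-coding starts, of which 3 were occupied by RNAP2. A peak of score 127 covered the most upstream start, at 123182258. A peak of 4587 bp and score 632 covered the start at 123174561, and this peak also covers the start of 1110006G14Rik at 123175493, so the starts cannot be separated. The internal start at 122968221 had an RNAP2 peak of score 179 and a Med12 peak of score 70.15. At the remaining starts, 122989619 and 123138600, the nearest RNAP2 peaks were 11710 bp and 35534 bp away.

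The promoter at the internal Sox6 start is shown because it is the one start among the 10 genes with both proteins. It covers chr7:122968172-122968471 on the minus strand, from 250 bases before to 50 after the start, and was read from the mm9 reference. Capitals mark the letters ACAAT, the core bound by SOX factors, and TGTGGT, the core bound by RUNX factors, on either strand, so that they may also read ATTGT and ACCACA.
Sox6 internal start: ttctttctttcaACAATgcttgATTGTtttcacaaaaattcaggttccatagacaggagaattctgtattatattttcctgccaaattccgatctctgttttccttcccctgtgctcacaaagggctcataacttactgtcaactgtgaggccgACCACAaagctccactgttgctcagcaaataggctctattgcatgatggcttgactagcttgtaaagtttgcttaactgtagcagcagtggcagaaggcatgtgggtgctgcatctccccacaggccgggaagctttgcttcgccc
The window holds 2 SOX cores and 1 RUNX core, none overlapping another. Over 22362 start windows of the same length, 28.4% held at least 1 SOX core and 6.79% at least 2, and 15.2% held at least 1 RUNX core. Such matches describe the letters and do not show that a factor was bound.

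Inside Sox6, 27 RNAP2 peaks lay away from the starts, 26 of them wholly in introns, with scores from 40.6 to 889 and a median of 77.4. Of these 27 peaks, 10 had a score of at least 100 and 10 were under 50. They were not spread evenly. Of the 30 RNAP2 peaks that touch the gene, 20 lay nearer to its 3′ end than to its 5′ end, and the longest stretch without one ran for 125 kb between the peak at the 123174561 start and one at 123047921-123049321. The single RNAP2 peak of the searched region outside the gene, with a score of 1902, was at the start of the neighbour 1110004F10Rik.

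Med12 formed 9 peaks in Sox6, and 6 of them coincided with RNAP2. Apart from the internal start, the 5 shared sites lay within a downstream stretch between 122740343 and 122811904. The intronic RNAP2 peak with the highest score in the gene, 889 at chr7:122780573-122783426, was one of them and overlapped a Med12 peak of score 53.3. The Med12 peak with the highest score was 113 at chr7:122767830-122770290, where RNAP2 had a score of 201.38. At the other 3 shared sites RNAP2 scores were 315, 261 and 44.81, with Med12 scores of 43.79, 56.82 and 60.53 in the same order. The order of the sites by one protein was therefore not their order by the other. Unshared Med12 peaks were found at 122760336-122761821, with a score of 99.98, and at 2 sites further upstream with scores of 44.9 and 46.44.

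Sox5, a close relative of Sox6 and its partner in cartilage, had 24 RNAP2 peaks, 5 Med12 peaks and 3 shared sites. It spans chr6:143776945-144730497 on the minus strand (ENSMUSG00000041540.9). A single RNAP2 peak of 2624 bp and score 499 covered the grouped protein-coding starts at 144157972 to 144158078. The Med12 peak closest to any of the starts there was 102289 bp away. A second group of protein-coding starts, at 143895608 to 143895626, had no peak within 1 kb, the nearest RNAP2 peak lying 2542 bp upstream. At the most upstream starts, 144730439 and 144730497, which belong to noncoding transcripts, no RNAP2 peak was near, the closest lying 156739 bp upstream and so outside the searched region, and a Med12 peak of score 72.34 lay 5669 bp upstream.

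Of the 23 RNAP2 peaks of Sox5 away from its starts, 21 were wholly intronic, and their scores ran from 40.2 to 357 with a median of 79.1. Downstream of the occupied start there were 20 of them and upstream 3. Like Sox6, the gene had a score of at least 100 at a minority of these sites, here 9 of 23. The shared site with the highest scores was near the 3′ end, at chr6:143786760-143787998, with an RNAP2 score of 357 and a Med12 score of 83.16. The others were at 143943297-143944374, with scores of 67.75 for RNAP2 and 48.06 for Med12, and at 144260797-144262157, with 60.33 and 66.72. The remaining Med12 peak in the gene, at 143972194-143973434, had a score of 55.55 and no RNAP2 peak over it.

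**Figure D2:**
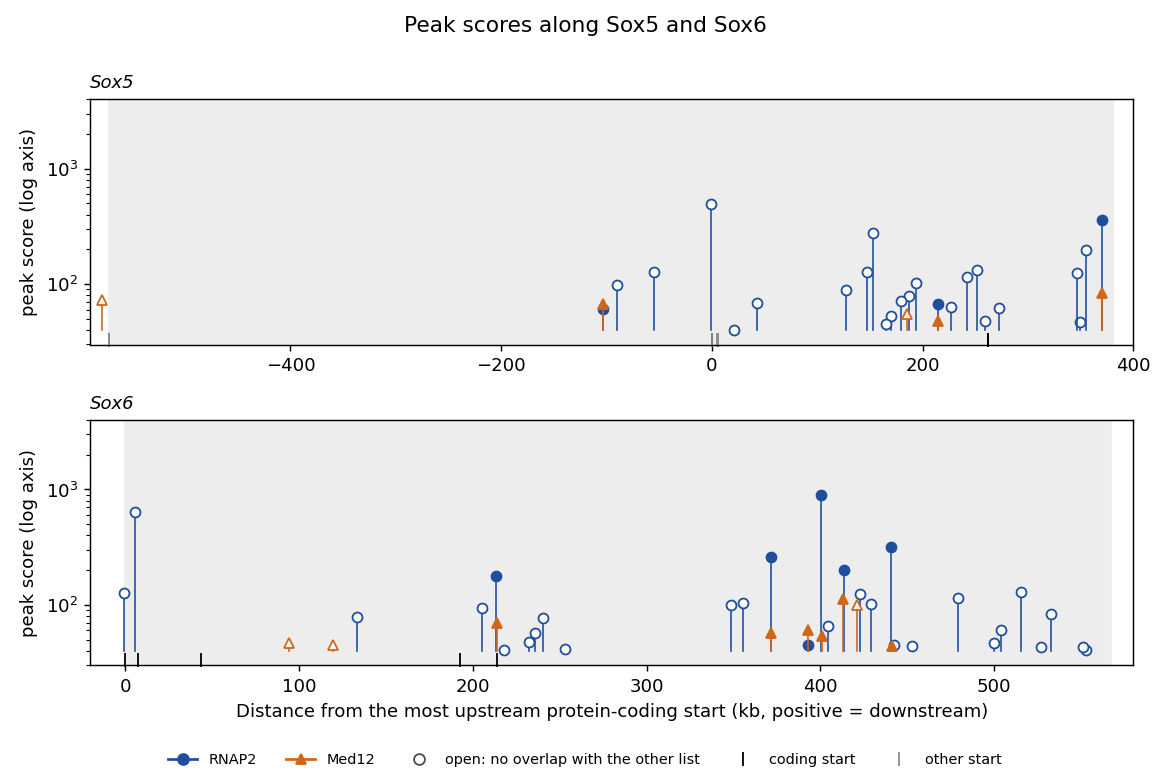
Scores (log axis) of RNAP2 peaks (blue circles) and Med12 peaks (orange triangles) along Sox5 and Sox6 by distance in kb from the most upstream protein-coding start, with filled symbols for peaks that overlap the other list, grey shading for the gene and ticks for annotated starts. The occupied start of Sox5 at 499 has no Med12 symbol, and most filled symbols of Sox6 lie far downstream of its upstream starts.

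The plot of scores shows RNAP2 without Med12 at the most upstream coding starts of both genes, and most shared sites downstream of them. The layouts also differ. In Sox5, the shared site at 144260797-144262157 lay upstream of the occupied start, and in Sox6 a shared site lay at the internal coding start. The centres of the shared part of the highest-scoring Med12 sites away from starts are shown for Sox5 (chr6:143787354-143787653) and Sox6 (chr7:122768381-122768680) as examples of these sites inside the genes, on the plus strand of mm9. The Sox6 peaks are wholly intronic, and the Sox5 peaks touch an annotated exon. Capitals mark the SOX core as above, and in the Sox5 site also the TATA box letters TATAAA.
Sox5 internal site: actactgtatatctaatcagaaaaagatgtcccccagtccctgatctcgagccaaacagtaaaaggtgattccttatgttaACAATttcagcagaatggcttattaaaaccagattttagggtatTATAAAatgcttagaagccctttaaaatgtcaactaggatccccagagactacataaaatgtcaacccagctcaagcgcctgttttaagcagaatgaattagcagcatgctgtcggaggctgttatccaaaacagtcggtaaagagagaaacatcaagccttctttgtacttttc
Sox6 internal site: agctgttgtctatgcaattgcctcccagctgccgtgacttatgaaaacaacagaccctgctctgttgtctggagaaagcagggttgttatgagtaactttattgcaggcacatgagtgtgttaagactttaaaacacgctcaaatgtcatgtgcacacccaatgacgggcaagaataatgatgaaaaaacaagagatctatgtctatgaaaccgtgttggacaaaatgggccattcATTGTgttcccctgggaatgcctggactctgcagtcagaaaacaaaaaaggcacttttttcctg
Each window has 1 SOX core and no RUNX core. At 2669 shared sites away from annotated starts, 43.5% of windows of this length held a SOX core, 20.6% a RUNX core and 35.3% a TATA box match. One SOX core is thus common among such sites.

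The number of intronic peaks has to be read against gene length. Of 200 protein-coding genes with a span of at least 500 kb, the median gene had 2 RNAP2 peaks, 3 Med12 peaks and 0 shared sites within its span, and 60 had no RNAP2 peak at all. Sox6 and Sox5 were ranks 6 and 7 by RNAP2 peaks, 15 and 62 by Med12 peaks, and 9 and 24 by shared sites. Ranked by the number per length of span, Sox6 and Sox5 were 3 and 10 for RNAP2, 7 and 85 for Med12, and 5 and 38 for shared sites. Long genes with RNAP2 at a start, of which there were 76, had a median of 4 RNAP2 peaks and 1 shared site, so both SOX genes were also above that median. Per 100 kb of searched region there were 4.64 RNAP2 peaks in Sox6 and 2.28 in Sox5, less than the 5 in the gene-dense region of Sp7. At least 3 shared sites within the span were found in Sox5, Sox6 and Runx3, as against 0.635% of all protein-coding genes and 15.5% of the long ones. This count of 3 was chosen after values were seen. With scores of at least 100 in both lists, the shared sites of Sox5 fell to 0 and those of Sox6 to 1.

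Col2a1, which encodes the main collagen of cartilage, had the highest start score of the 10 genes. It lies at chr15:97806033-97835155 on the minus strand (ENSMUSG00000022483.9). The RNAP2 peak at 97831423-97835871 was 4449 bp wide, covered all annotated protein-coding starts of the gene and reached into its first part. With a score of 2172 it was rank 674 of the 20479 RNAP2 peaks, the top 3.29% of the list. Among the 9439 genes with RNAP2 at a start, Col2a1 was in the top 7.7% by score and in the top 2.09% by width. Further into the gene there were RNAP2 peaks of score 52.1 at 97822974-97825223 and 126 at 97820266-97822253, the last over the start of a noncoding transcript. A peak of score 75.73 at 97804830-97806431 covered the 3′ end, where 4.00% of all genes had RNAP2. RNAP2 peaks covered 28.7% of the span of Col2a1, against 3.52% of that of Sox5.

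No Med12 peak lay within Col2a1. Its 1 Med12 peak in the searched region, with a score of 79.22, was 88157 bp upstream at the shared start of Senp1 and Pfkm, where RNAP2 had a score of 378. An RNAP2 peak of score 219 without Med12 was found in intergenic sequence 21568 bp upstream of Col2a1, at 97856723-97858704.

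Acan, which encodes the large proteoglycan aggrecan, and Matn1, which encodes the matrix protein matrilin-1, had no peak in or at the gene. In the searched region of Acan (chr7:86198369-86259985, plus strand, ENSMUSG00000030607.6) the 1 RNAP2 peak, with a score of 136, was 94948 bp away at the start of Mfge8, and the nearest Med12 peak was 269869 bp from the Acan start. For Matn1 (chr4:130500300-130511390, plus strand, ENSMUSG00000040533.7) the nearest peaks were 161238 bp away for RNAP2 and 104932 bp for Med12. The matrix genes of the early group therefore fell apart into Col2a1, with a broad and high-scoring start peak, and a pair with none above the limit of the lists.

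The starts of Col2a1 and Acan are shown because they resemble each other in base composition and differ in RNAP2. The window of Col2a1-001 is chr15:97835077-97835376 on the minus strand and that of Acan is chr7:86198119-86198418 on the plus strand, each from 250 bases before to 50 after the start.
Col2a1-001 start: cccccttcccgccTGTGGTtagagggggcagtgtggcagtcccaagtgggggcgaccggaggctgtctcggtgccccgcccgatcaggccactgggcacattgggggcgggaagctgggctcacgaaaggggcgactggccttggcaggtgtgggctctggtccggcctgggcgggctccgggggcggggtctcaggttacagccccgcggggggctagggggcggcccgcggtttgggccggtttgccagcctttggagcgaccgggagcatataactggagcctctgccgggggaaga
Acan start: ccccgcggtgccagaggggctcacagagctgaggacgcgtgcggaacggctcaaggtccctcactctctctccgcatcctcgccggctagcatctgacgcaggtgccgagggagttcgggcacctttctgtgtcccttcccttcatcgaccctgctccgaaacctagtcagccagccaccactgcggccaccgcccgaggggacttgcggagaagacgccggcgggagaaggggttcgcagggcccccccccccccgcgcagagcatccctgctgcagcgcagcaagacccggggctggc
The Col2a1 window has a GC content of 71.3% with 22 CpG and holds 1 RUNX core, in capitals. The Acan window has a GC content of 69.3% with 26 CpG and none of the letters searched for. Neither has a SOX core or a match to TATAAA.

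CpG-rich starts were occupied more often in general, so the members were also set beside genes of their own class. A start was called CpG-rich when the 1000 bp around it had at least 50% GC and an observed to expected CpG ratio of at least 0.6. Of 10782 genes with a CpG-rich coding start, 74.6% had RNAP2 at a start (95% Wilson interval 73.8 to 75.4%), and of 11568 without one, 12.0% did (11.4 to 12.6%). Col2a1, Acan, Runx2, Runx3, Ihh and Pthlh belong to the first class, and 3 of these 6 had RNAP2. In the second class, Sox5 and Sox6 had RNAP2 and Matn1 and Sp7 did not. The occupied Sox5 start at 144158000 had a ratio of 0.30, whereas its unoccupied noncoding start at 144730497 had 0.77.

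Runx2, which is required for osteoblasts to form, had 3 RNAP2 peaks and no Med12 peak in its searched region. It spans chr17:44632936-44951746 on the minus strand (ENSMUSG00000039153.9). A peak of 1170 bp and score 177 at 44872556-44873725 covered the proximal starts at 44873597, 44872659 and 44872583. The distal protein-coding starts, from 44951175 to 44951576, had none, and the nearest RNAP2 peak was at least 36086 bp away. That peak, with a score of 381, was at the start of Supt3h, which overlaps Runx2 on the opposite strand, so reads there cannot be assigned to one of the genes. The last peak, with a score of 43.8, lay in an intron of Supt3h. The nearest Med12 peak was 260596 bp from any Runx2 start.

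Runx3, a relative of Runx2 that shares its role in cartilage maturation, was the later gene with the most peaks of its own. The gene lies at chr4:134676567-134733905 on the plus strand (ENSMUSG00000070691.4) and held 5 RNAP2 and 3 Med12 peaks, with none elsewhere in the searched region. As in Runx2, the distal start, at 134676567, had no peak, the nearest RNAP2 being 25709 bp downstream. Around the proximal coding start of Runx3-002 at 134708411, one RNAP2 peak of score 95.33 ended 704 bp upstream and another, of score 241, began downstream at 134709359 and covered starts of noncoding transcripts. Neither covered the coding start itself. The distal coding starts were poor in CpG, with ratios from 0.18 to 0.36 in Runx2 and of 0.36 in Runx3. At the proximal coding starts the ratios were 0.59 to 0.91 in Runx2 and 0.95 in Runx3. The Runx2 start with 0.59, at 44871642, was just under the limit for a CpG-rich start.

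All 3 Med12 peaks of Runx3 overlapped RNAP2, and all 3 sites were intronic. At chr4:134702276-134703745, 4666 bp upstream of Runx3-002, RNAP2 had a score of 406 and Med12 a score of 227, which is rank 445 of the 10634 Med12 peaks and the top 4.18% of that list. No other Med12 peak of the 10 genes had as high a score. The site at 134721903-134723316 had scores of 485 for RNAP2 and 131 for Med12, and the one at 134711740-134713146 had 89.05 and 66.84. Med12 peaks covered 5.85% and RNAP2 peaks 12.8% of the span. Among 6022 protein-coding genes of 25 to 100 kb, 8 genes or 0.133% had at least 3 shared sites within the span, Runx3 among them. The count of 3 and this span class were chosen after values were seen, so the share only describes where Runx3 stands. With scores of at least 100 it kept 2 of its 3 shared sites, more than any other member.

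The centre of the shared part of the highest-scoring Med12 site in Runx3 is shown because it leads the 10 genes for Med12. It is chr4:134702775-134703074 on the plus strand of mm9, with the RUNX core in capitals on either strand.
Runx3 intronic site: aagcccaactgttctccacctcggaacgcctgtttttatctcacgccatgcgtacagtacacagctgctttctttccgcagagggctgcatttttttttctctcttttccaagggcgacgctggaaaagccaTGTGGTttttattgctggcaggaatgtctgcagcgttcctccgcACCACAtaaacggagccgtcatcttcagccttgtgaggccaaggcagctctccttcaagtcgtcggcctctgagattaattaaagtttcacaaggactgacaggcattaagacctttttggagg
The window has 2 RUNX cores and neither a SOX core nor a TATA box match, and its GC content is 49.7%. At least 2 RUNX cores were found in 2.59% of the 2669 shared sites away from annotated starts and in 1.81% of start windows.

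**Figure D3:**
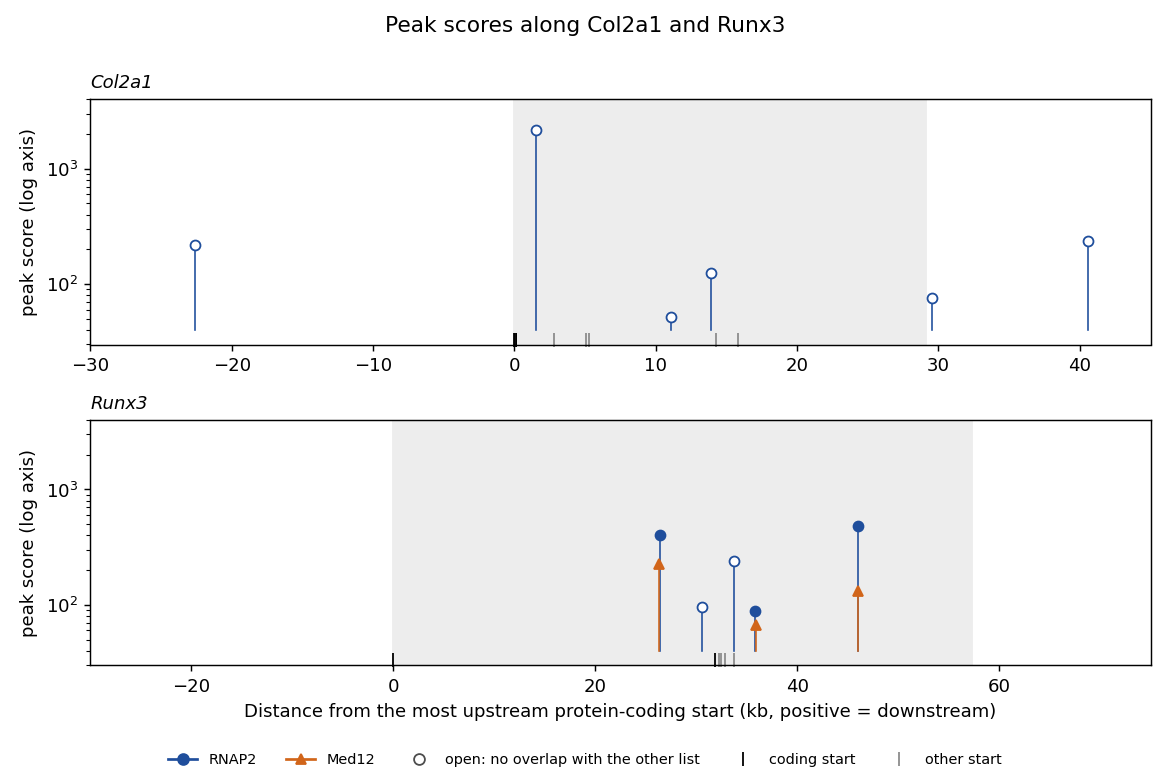
Scores (log axis) of RNAP2 peaks (blue circles) and Med12 peaks (orange triangles) along Col2a1 and Runx3 by distance in kb from the most upstream protein-coding start, with filled symbols for peaks that overlap the other list, grey shading for the gene and ticks for annotated starts. Col2a1 has its highest RNAP2 score, 2172, at the start and no Med12 in the gene, and Runx3 has 3 shared sites and no peak at its upstream start.

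Col2a1 and Runx3 thus differed in the plot of their scores. RNAP2 without Med12 was concentrated at the start of Col2a1. In Runx3 the higher RNAP2 scores, 406 and 485, were at intronic sites with Med12, 4666 bp and 11552 bp from the nearest start. The Med12 peak closest to a Runx3 start was 1603 bp away, so its absence from the starts depends on the limit of 1 kb.

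Sp7, which encodes the osteoblast factor osterix, had 10 RNAP2 peaks and 1 Med12 peak in its searched region, and none within 1 kb of its starts at 102196756 and 102197285. The gene is short (chr15:102187040-102197285, minus strand, ENSMUSG00000060284.5) and 9 other protein-coding genes have a start in its region. Of the 10 RNAP2 peaks, 6 lay at the starts of Mfsd5, Espl1, Pfdn5, Aaas, Sp1 and Prr13, with a score of up to 1287 at Sp1. The Med12 peak, with a score of 49.47, was also at Aaas. The peak closest to Sp7 itself, with a score of 131 at 102185406-102187094, lay mostly beyond its 3′ end and covered 0.537% of its span. An RNAP2 peak over the 3′ end with none at a start was found for 0.662% of all genes. An overlap at the edge is enough for that count. In intergenic sequence upstream there were RNAP2 peaks of score 151 at 102207057-102208248, 9772 bp from the start, and of score 154 at 102229255-102230742. The count of Sp7 is therefore mainly a count of its neighbours.

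Ihh, the hedgehog signal of maturing cartilage cells, and Pthlh, the parathyroid hormone-related signal that holds them back, had no RNAP2 peak in their searched regions. For Ihh (chr1:74991891-74998246, minus strand, ENSMUSG00000006538.8) the nearest RNAP2 peak was 122575 bp from a start. It had 2 Med12 peaks without RNAP2, one of score 41.85 at 75011102-75011825, which is 12856 bp upstream, and one of score 44.86 at 75086209-75087417 in an intron of Nhej1. Both were close to the limit of the list and were lost at a score of at least 50. For Pthlh (chr6:147200623-147212689, minus strand, ENSMUSG00000048776.6) the nearest peaks were 162150 bp away for RNAP2 and 162283 bp for Med12. The starts of both genes were CpG-rich, with ratios of 0.77 and 0.70.

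Other genes of the cartilage and bone programs were counted in the same way, from lists chosen for their roles. RNAP2 lay at a start of 12 of 24 other cartilage genes and of 11 of 26 other bone genes, and Med12 at 4 and 2 of them, beside the 42.2% and 9.37% of all genes given above. The median start score was 396 for the cartilage and 499 for the bone genes with a peak. Sox9, the master regulator of cartilage and partner of Sox5 and Sox6, had an RNAP2 peak of 7408 bp with a score of 2379, close to that of Col2a1. Of the collagens that assemble with the product of Col2a1, RNAP2 was found at the starts of Col9a1 (993), Col9a2 (304), Col9a3 (1236) and Col11a1 (230), and not at Col11a2, and Col9a1 had Med12 as well, with a score of 177. RNAP2 was also at the starts of Col27a1 (364) and of Hapln1 (107), which encodes the link protein that holds aggrecan in the matrix. The other listed cartilage genes with RNAP2 at a start were Gdf5 (301), Bmpr1b (823), Nkx3-2 (256), Fgfr3 (1228) and Trps1 (429). Of these, Gdf5 and Bmpr1b also had Med12 there, with scores of 144 and 83.0. Pth1r had Med12 alone at a start, with a score of 42.0, and Lect1 had neither protein. Like Acan and Matn1, the matrix genes Comp, Matn2, Matn3, Matn4, Chad and Prg4, the gene of mature cartilage Col10a1 and the factors Sox8 and Mef2c had none, so that matrix genes and factors were found on both sides.

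In the bone list, RNAP2 start scores of transcription factors were 2686 at Twist1, 1834 at Msx2, 1111 at Dlx6, 564 at Runx1 and 273 at Dlx5, and Cbfb, which encodes the partner of the RUNX proteins, had no start peak. Of the matrix genes, Col1a1 (193), Col1a2 (499), Col5a2 (236) and Sparc (427) had a start peak. As at Sp7 and Ihh, there was none at Bglap, Ibsp, Spp1, Alpl, Phex, Dmp1, Mepe or Sost, which are products of osteoblasts, mineralising cells or osteocytes. Trps1, a factor that acts in growth plate cartilage, had 31 RNAP2 peaks, 9 Med12 peaks and 7 shared sites within the gene, beside 30, 9 and 6 in Sox6.

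**Figure D4:**
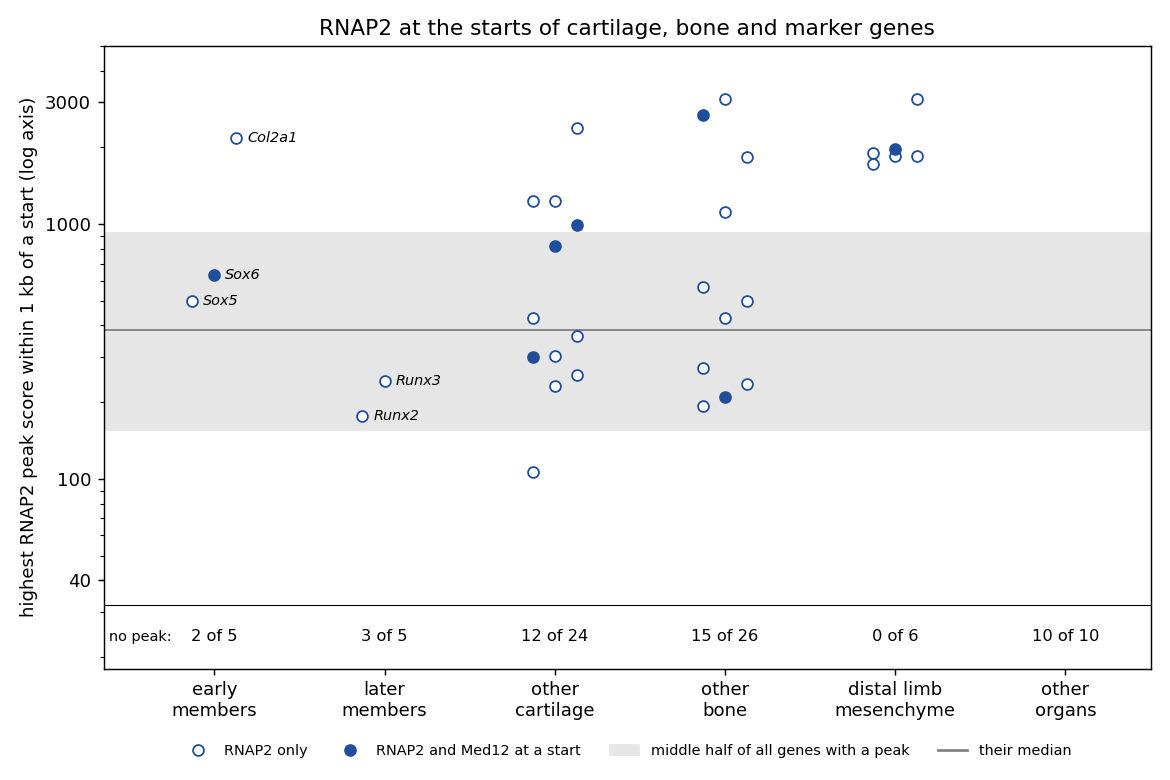
Highest RNAP2 score within 1 kb of a start (log axis) for each gene with such a peak, by gene list, with filled symbols where Med12 was also at a start and the genes without an RNAP2 peak counted below. The grey band spans the middle 50% of all 9439 genes with a start peak, from 155 to 926, and the line is their median of 383; Col2a1 lies above the band, and Sox5, Sox6, Runx2 and Runx3 within it.

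The plot of start scores sets the members beside these lists. The 6 markers of distal limb mesenchyme had a median of 1880, near the value of Col2a1 and above those of the other 4 members with a start peak. Hoxd13 and Hoxd12 share the same peak, of score 1855, which enters this median for both.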

How the data were processed

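RNAP2 and Med12 peak lists of 1 library each were used, and the input library has no list here. The authors mapped reads to mm9 with Bowtie and called peaks with MACS 1.4.1. Whether the input served as control, and the read length, are not given in the sources used here. The deposited lists give the authors' score for each peak, a p-value as negative log10 multiplied by 10, and end at 40. It depends on library depth and peak width, and nearby peaks may have been merged or split. The lists hold no counts, so no error could be given for a peak.

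Peaks were joined to GENCODE vM1 genes with Python 3.11.15 and numpy 2.4.6. No peak lay past a chromosome end of the mm9 reference. A peak at a start lies within 1 kb of it, and peaks sharing at least 1 bp form a shared site. bedtools 2.31.1 gave the same 4435 shared RNAP2 peaks, and the counting was tested on simulated data. Of 2 annotation entries named Runx2, the longer was used. Wilson intervals came from scipy 1.17.1 and figures from matplotlib 3.10.9.

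The members, the marker and gene lists and the motifs were chosen with earlier results of these data known. All 10 members were named, with peaks at their starts, shared sites and the highest-scoring peaks, and from the other lists genes with a start peak. Genes of those lists without a peak, the unshared and neighbouring peaks, the count of 3 shared sites, the span classes and the CpG classes were chosen after values were seen. Alternatives were scores of at least 50 and 100, starts of 5 kb, protein-coding transcripts only, a 50 kb window, the window without the gene span and an overlap of 50% of the shorter peak. Windows from the most upstream protein-coding start, with and without the span, were chosen after seeing the data.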

Additional observations from a re-analysis of the deposited data

How the results depend on the processing

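Of 70 values recomputed under 9 alternatives for 14 results, 49 stayed close to the reported value and 21 moved. The order of early and later genes turned without the gene span for RNAP2, Med12 and shared sites. Sp7 alone held 10 of the later RNAP2 peaks there, 6 of them at starts of other genes. The order also turned at scores of at least 100 for Med12 and shared sites. With scores of at least 100, the early genes had 30 RNAP2 peaks, 1 Med12 peak, 1 shared site and 0 genes with Med12 at a start, the later genes had 2 Med12 peaks and 2 shared sites, and the shares of all genes with a start peak were 35.6% for RNAP2 and 2.36% for Med12. With scores of at least 50, the later genes had 3 Med12 peaks and the shares were 40.8% and 6.97%. Within 5 kb of a start, the later genes with Med12 numbered 1, which is Runx3, and the shares were 45.3% and 12.6%. With protein-coding transcripts only, the Med12 share was 8.97%. Without the gene span, the early genes had 11 RNAP2 peaks, 3 Med12 peaks and 1 shared site, and from the most upstream protein-coding start 16, 2 and 1.

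No paired analysis was possible because there are no replicates, and no result here comes from a test. The lists give no depth per peak, so binding below a score of 40 and absence of binding cannot be told apart. Wide or weak peaks can change their number with the peak caller's settings, which were not varied here.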
